A study of Mus musculus with 2 samples.

Results

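The histone cluster genes were the 67 genes, of 31053 in the deposited matrices, whose symbol begins with Hist1h, Hist2h, Hist3h or Hist4h. Their transcripts were counted as unique molecular identifiers (UMIs, each marking 1 captured RNA molecule) in live CD45+ cells sorted from B16 melanoma tumours of C57BL/6 mice aged 8 weeks. The library labelled WT came from Mettl3 fl/fl Lyz2 +/+ mice, and the library labelled KO came from Mettl3 fl/fl Lyz2 cre/+ mice, so that both genotypes carried the floxed Mettl3 alleles and only KO carried Cre. Cre sits in the Lyz2 locus, which is active in macrophages, monocytes and granulocytes, and Mettl3 encodes the catalytic subunit of the m6A RNA methyltransferase. Each genotype was 1 library, pooled from several mice, so no difference below has a replicate check and no test was made. Intervals are 95% intervals for counting error only.

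For WT, 45963969 UMIs were deposited in 5895 barcodes, and for KO 54052317 UMIs in 8446 barcodes. After filtering, 5661 and 8157 barcodes remained, with a median of 4354 and 3740 UMIs. Mettl3 itself was at 9.22 UMIs per 1000000 (CPM, interval 7.90 to 10.7) in macrophage-like barcodes of WT and 10.53 CPM (9.07 to 12.1) in those of KO. It was therefore not lower under the KO label, although counts near the 3′ end need not cover the deleted exons. Lyz2, whose locus carries Cre in KO, was at 5814 CPM in macrophage-like barcodes of WT and 2662 CPM in those of KO, and at 8867 and 3670 CPM in monocyte-like barcodes, which is the direction of a Cre insertion in 1 Lyz2 allele of KO. Because Mettl3 did not show the deletion, the genotypes are named by their labels throughout. Both libraries shared 13 barcode sequences.

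Histones are the proteins around which DNA is wound. A nucleosome holds a core made of H2A, H2B, H3 and H4, and H1 sits on the linker DNA between nucleosomes. Most genes in the histone clusters are transcribed in S phase, when newly made DNA must be packaged, and their mRNA ends in a short stem-loop instead of a poly(A) tail. The stem-loop is bound by SLBP, which takes part in the processing, translation and decay of these mRNAs. Droplet 3′ chemistry primes on poly(A), so a UMI of a histone cluster gene marks a molecule that carried or contained a run of A, and the level per gene is not a level of all its mRNA. Values below therefore compare the same gene between cells, not 1 gene with another.

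The members comprised 6 H1, 18 H2A, 18 H2B, 12 H3 and 13 H4 genes. In the mouse build GRCm38, the Hist1 cluster held 54 of them (chr13:21715763-23934851), the Hist2 cluster 10 (chr3:96219865-96270132), the Hist3 cluster 2 on chromosome 11 and the Hist4 cluster 1 on chromosome 6. A single exon was annotated for 62 members. Near-identical copies are a limit of the counting: in 27 members more than 50% of the 90-base stretches of the transcript also occurred in another annotated gene, and 6 members shared none. Reads from such stretches cannot be assigned to 1 gene, so the split of counts between close copies is uncertain. A gene on the other strand overlapped 21 members, and a gene on the same strand overlapped 7.

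The stem-loop was searched on the sense strand as the arm GGNNCT, the loop TNTN and the arm AGNNCC without gaps, with the 6 bases of each arm complementary. It was found in 55 of 21901 protein-coding genes (0.251%), and 46 of these were members. In the transcript used for each member, 45 of 67 members had it, in 8 variants, and 25 had the same 16 bases. In 22 members the annotated transcript ended within 100 bases of the stem-loop, in 23 it ran on for 100 bases or more, and in 22 it contained none. The sites below are from the GENCODE M21 transcripts, 5′ to 3′, with the stem-loop in capitals, and were chosen because the members they belong to stood near the top or the bottom of the comparison of cycling with other cells, except Hist1h4d, which was among the 12 members with the most UMIs.
Hist1h2ap, H2A, chr13:21833026-21833051, minus strand: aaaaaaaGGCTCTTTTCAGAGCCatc
Hist1h3c, H3, chr13:23745040-23745069, minus strand: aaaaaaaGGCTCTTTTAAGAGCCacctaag
Hist1h3g, H3, chr13:23535882-23535911, plus strand: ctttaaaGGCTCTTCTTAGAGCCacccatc
Hist1h4d, H4, chr13:23581943-23581972, plus strand: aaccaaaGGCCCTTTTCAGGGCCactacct
Hist1h2ae, H2A, chr13:23570661-23570690, minus strand: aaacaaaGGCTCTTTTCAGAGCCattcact
Hist1h1c, H1, chr13:23739505-23739534, plus strand: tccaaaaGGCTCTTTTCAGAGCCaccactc
Hist3h2a, H2A, chr11:58955165-58955194, plus strand: caccaaaGGCTCTTTTCAGAGCCacccaca
All 7 lie in the part of the transcript after the coding end. Hist1h2ap, Hist1h2ae, Hist1h1c and Hist3h2a carry the same stem-loop and differ in what follows it. The annotated transcript of Hist1h2ap ended 3 bases later, that of Hist1h2ae 151 bases later, that of Hist1h1c 840 bases later and that of Hist3h2a 1643 bases later. The last 3 of these had a poly(A) signal, AATAAA or ATTAAA, within the final 60 bases, as did 17 members in all.

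H2A and H2B genes lie in divergent pairs in the clusters, and the octamer ATTTGCAT is a known element of H2B promoters, bound by OCT1. In RefSeq windows of 250 bases before to 50 bases after the gene start (GRCm38.p6), searched on both strands, the octamer was found for 7 of 16 H2B genes, 7 of 18 H2A genes and none of the 6 H1, 10 H3 and 12 H4 genes with a window. Its share was 22.6% of the 62 members with a window, against 1.97% of 27025 genes. The 3 windows shown have the octamer in capitals. Hist2h2bb and Hist1h2be are described below, and Hist1h2bm lies in the stretch of the cluster that the comparison with melanoma cells is about.
Hist2h2bb, chr3:96269641-96269670, plus strand: tgtgaaacctcATTTGCATacaagctctat
Hist1h2be, chr13:23586019-23586048, minus strand: agtaagacttaATTTGCATaagactgccta
Hist1h2bm, chr13:21722008-21722037, plus strand: ctctcgtctctATTTGCATaacagcgtgta
TATAAA was in 35 of the 62 windows (56.5%), against 15.7% of all genes, and CCAAT was in 53 (85.5%), against 41.1%. CCAAT was in every H1, H2A, H2B and H3 window but in only 3 of 12 H4 windows. The octamer and TATAAA can share at most 1 end base, and CCAAT overlaps neither by more than 2 bases. These are matches of letters in short windows, not shown binding sites.

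In the kept barcodes the members took 69276 UMIs, at 707 CPM in WT and 688 CPM in KO. At least 50 UMIs were found for 58 members, 8 had between 1 and 49, and Hist1h2ba, a testis-specific H2B gene, had 0. Just inside the minimum were Hist1h3h with 76 UMIs and Hist1h2ad with 84, and just outside were Hist1h2ao with 44 and Hist1h2bl with 43. The 12 members with the most UMIs took 61.6% of the total and the top 3, Hist1h2ap, Hist1h2ae and Hist1h1e, took 27.5%.

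Cells were placed in classes by marker genes, and each class was split into cycling barcodes, with at least 2 UMIs of Mki67 and Top2a together, and other barcodes. Mki67 and Top2a are expressed from S phase to mitosis and peak in G2/M, and no member entered the gate. The cycling gate held 801 barcodes of WT (14.1%) and 819 of KO (10.04%). Cycling barcodes were deeper, with a median of 17207 and 15020 UMIs against 3654 and 3402 in other barcodes, and a deep barcode passes a gate set in UMIs more easily. The part of depth in what follows was not tested beyond the thinned values given.

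Histone cluster transcripts were several times more abundant in cycling cells of every class with more than 1 cycling barcode in a library. Over all kept barcodes the members summed to 1248 CPM (1232 to 1265) in cycling against 380 CPM (373 to 388) in other barcodes of WT. In KO the sums were 1542 CPM (1523 to 1562) and 352 CPM (346 to 357). These are log2 differences of 1.71 (1.68 to 1.75) and 2.13 (2.10 to 2.16), and each is far larger than its counting error.

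**Figure D1:**
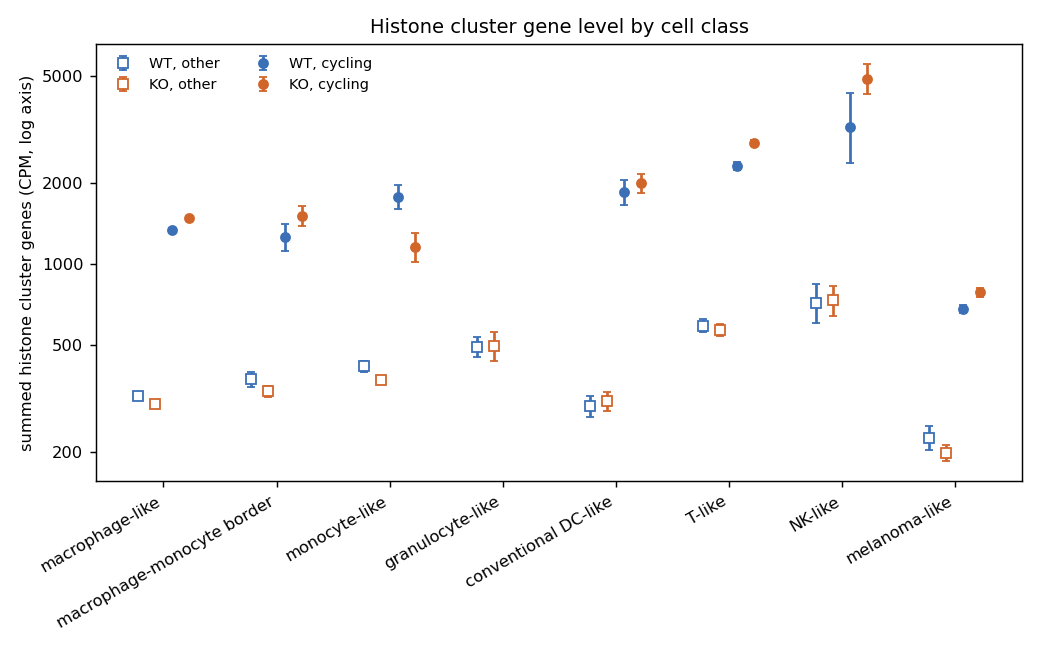
Summed CPM of the 67 histone cluster genes (log axis) by cell class, for cycling and other barcodes of the libraries labelled WT and KO, with 95% Poisson intervals. In the classes plotted with more than 1 cycling barcode, cycling barcodes lie above the other barcodes, and T-like cells lie above macrophage-like cells (2317 against 1335 CPM in cycling barcodes of WT).

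Among macrophage-like barcodes the sums were 1335 CPM in 418 cycling and 323 CPM in 1211 other barcodes of WT. In KO they were 1478 CPM in 418 cycling and 300 CPM in 1594 other barcodes. T-like barcodes had higher CPM in both states: 2317 and 589 CPM in WT, 2808 and 568 CPM in KO. CPM is a share of the UMIs of a class, and the classes differ in UMIs per barcode. Other T-like barcodes held a mean of 2.10 and 1.68 member UMIs in WT and KO, against 2.93 and 2.16 in other macrophage-like ones. Cycling T-like barcodes held a mean of 27.3 and 38.25, against 24.8 and 22.3 in cycling macrophage-like ones. The log2 differences between cycling and other barcodes nonetheless lay close together, at 2.05 and 2.30 in macrophage-like and 1.98 and 2.31 in T-like barcodes. Among classes with more than 1 cycling barcode in each library, the lowest CPM values were those of melanoma-like barcodes, tumour cells that passed the CD45 sort, at 681 and 225 CPM in WT and 782 and 197 CPM in KO. Per barcode, however, cycling melanoma-like barcodes held a mean of 39.5 and 38.6 member UMIs, more than macrophage-like ones. Conventional DC-like barcodes were at 1847 CPM in 11 cycling barcodes and 295 CPM in other barcodes of WT, and at 1993 CPM in 20 and 308 CPM in KO. NK-like barcodes had the highest cycling level, 3240 and 4897 CPM, but from 3 and 7 barcodes.

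Granulocyte-like barcodes had no cycling cells by the gate. None of 561 in WT and none of 263 in KO passed the cycling gate, which allows shares of up to 0.535% and 1.14%. Their members summed to 490 CPM (451 to 532) and 493 CPM (435 to 557), which lies above the 323 and 300 CPM of other macrophage-like barcodes and below the 589 and 568 CPM of other T-like barcodes. Per barcode they held a mean of 1.04 and 0.996 member UMIs, below the 2.93 and 2.16 of other macrophage-like barcodes. Other plasmacytoid DC-like barcodes were at 489 CPM (419 to 567) and 412 CPM (354 to 477). Other B-like barcodes were at 699 CPM (564 to 857) and 679 CPM (530 to 857), above the granulocyte-like interval in WT.

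A member UMI was found in 96.4% of cycling barcodes of WT and 97.4% of KO, and in 70.2% and 67.4% of other barcodes. In granulocyte-like barcodes, with a median of 1378 and 1097 UMIs, the shares were 47.8% and 51.0%. Thinned to 1000 UMIs, with 503 and 828 shallower other barcodes left out, the shares became 57.2% and 61.4% in cycling and 33.3% and 31.2% in other barcodes. Granulocyte-like barcodes were then at 33.8% (29.5% to 38.4%) and 43.8% (35.9% to 51.8%), with 103 of 561 and 103 of 263 left out. Other T-like barcodes were at 43.2% (39.0% to 47.5%) and 38.9% (35.2% to 42.7%), above the granulocyte-like share in WT. Lyz2, a myeloid gene, was at 1471 and 517 CPM in T-like barcodes, and the part of free RNA in the member UMIs of other barcodes was not tested.

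Taken 1 by 1, 41 of the 58 members with at least 50 UMIs (70.7%) were at least 2-fold higher in cycling barcodes in both libraries, against 7.73% of 13473 genes. This count depends on depth: with each barcode thinned to 1000 UMIs, 35 members still had 50 UMIs and 21 of them (60%) were higher, against 5.65% of 10062 genes. In the unthinned counts none was 2-fold lower, against 5.77% of genes. The median log2 difference of the members was 1.82 in WT and 2.20 in KO, and that of all genes was 0.04 and 0.05. Within macrophage-like barcodes 43 of 54 members were higher (3.81% of genes) and none was lower (0.694%), within T-like barcodes 39 of 47 (4.38%), and within melanoma-like barcodes 21 of 27 (4.52%), with none lower (1.69%). Only Hist3h2a among T-like barcodes was 2-fold lower in both libraries (5.33% of genes). The ratios of cycling over other barcodes given below for single members pool all classes, unless a class is named. The mix of classes differs between the states. In WT, melanoma-like barcodes gave 4637655 of 17213735 UMIs in cycling and 1583974 of 28459846 in other barcodes. The part of this mix in the order of the members was not tested.

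**Figure D2:**
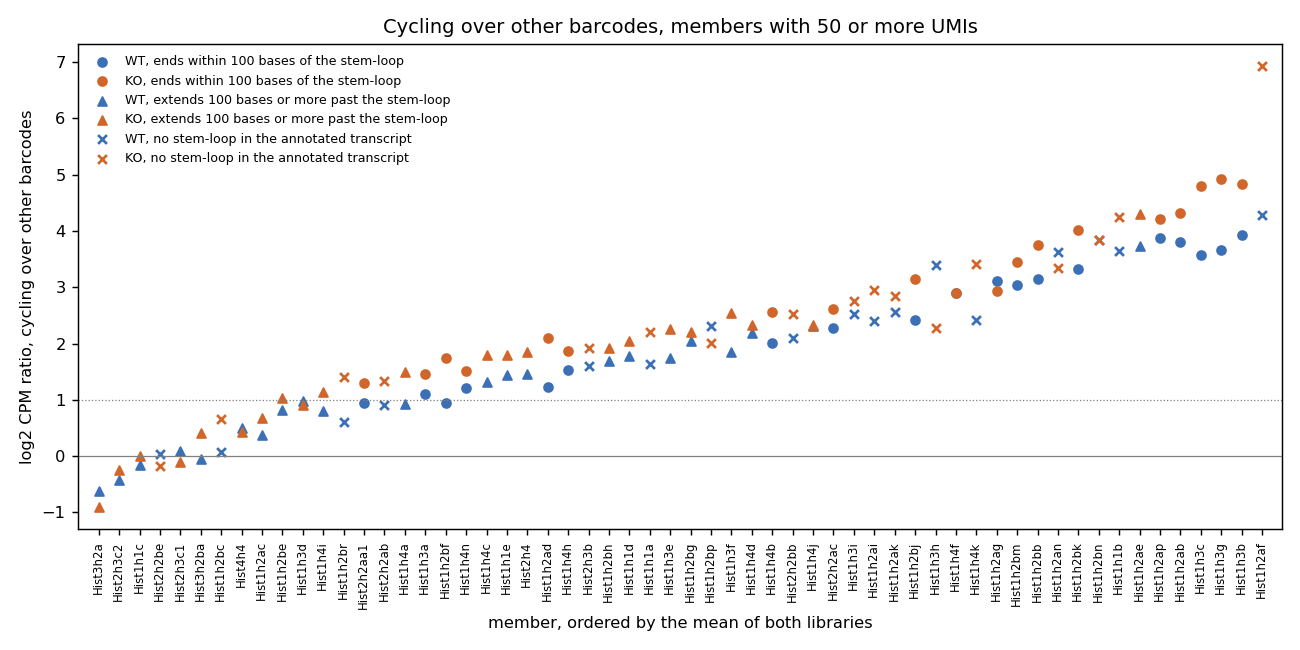
Log2 ratio of CPM in cycling over other barcodes for each of the 58 histone cluster genes with at least 50 UMIs, by library (colour) and by where the annotated transcript ends relative to the stem-loop (symbol), ordered by the mean of both libraries. The genes run from Hist3h2a (-0.62 and -0.89) to Hist1h2af (4.29 and 6.93), and the dotted line marks a 2-fold difference.

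The H1 genes with enough UMIs ran from -0.08 to 3.94 as the mean of both libraries, among members that ran from -0.76 to 5.61. Hist1h1b, which encodes linker histone H1.5, was at 49.9 CPM in cycling and 4.01 CPM in other barcodes of WT, and at 59.7 and 3.14 CPM in KO, with log2 differences of 3.64 (3.36 to 3.93) and 4.25 (3.97 to 4.53). Hist1h1e, which encodes H1.4, was at 71.3 and 26.3 CPM in WT and 88.0 and 25.3 CPM in KO (log2 1.44 and 1.80). Hist1h1d, which encodes H1.3, lay between them at 1.79 and 2.05. Hist1h1c, which encodes H1.2, did not follow: it was at 34.2 CPM in cycling and 38.3 CPM in other barcodes of WT and at 34.8 and 34.6 CPM in KO, with log2 differences of -0.17 (-0.31 to -0.02) and 0.01 (-0.14 to 0.15). Of the 5 H1 genes with enough UMIs, 4 were 2-fold higher in cycling barcodes (7.73% of all genes), and Hist1h1c was the exception.

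H2A genes held both extremes. Hist1h2ap was at 172 CPM in cycling and 11.8 CPM in other barcodes of WT and at 284 and 15.3 CPM in KO, with log2 differences of 3.87 (3.71 to 4.04) and 4.21 (4.08 to 4.33). Its log2 differences were 4.39 and 4.41 within macrophage-like barcodes and 3.63 and 3.96 within T-like barcodes. Hist1h2ae was at 167 and 12.5 CPM in WT and 197 and 9.94 CPM in KO (log2 3.74 and 4.31). Together these H2A genes made up 27.2% of member UMIs in cycling barcodes of WT and 31.1% in KO, but 6.38% and 7.19% in other barcodes. In granulocyte-like barcodes Hist1h2ap was at 15.98 CPM (19 UMIs) in WT and 22.6 CPM (12 UMIs) in KO. Other macrophage-like barcodes were at 10.8 and 16.2 CPM and other T-like barcodes at 24.1 and 34.3 CPM. The 90-base stretches of Hist1h2ap were 92.4% shared with other genes, and those of Hist1h2ae 31.9%.

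Hist1h2af showed the largest ratio of all members, with 130 UMIs in cycling and 11 in other barcodes of WT and 144 and 3 in KO. Its log2 differences were 4.29 (3.40 to 5.33) and 6.93 (5.35 to 9.22), the second resting on 3 UMIs. Among H2A genes, Hist1h2ab was at 3.81 and 4.31. At the other end stood Hist3h2a, with 15.6 CPM in cycling and 24.1 CPM in other barcodes of WT and 13.6 and 25.2 CPM in KO, log2 differences of -0.62 (-0.83 to -0.42) and -0.89 (-1.12 to -0.68). It was the member most clearly lower in cycling barcodes, and it shares bases with Trim17 on its own strand. In other barcodes Hist3h2a reached 86.6 and 52.7 CPM in plasmacytoid DC-like cells, against 17.8 and 9.98 CPM in T-like and 20.5 and 23.01 CPM in macrophage-like cells. Over the H2A family 10 of 14 genes were 2-fold higher in cycling barcodes (7.73% of all genes).

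Among H2B genes, 9 of 15 were 2-fold higher (7.73% of all genes). Hist2h2bb was at 37.6 and 8.82 CPM in cycling and other barcodes of WT and at 44.2 and 7.66 CPM in KO (log2 2.09 and 2.53). Hist1h2bc, by contrast, was at 34.0 and 32.5 CPM in WT and at 41.1 and 26.1 CPM in KO (log2 0.07 and 0.66). Its log2 differences were -0.22 and 0.56 within macrophage-like barcodes and 0.56 and 1.44 within T-like barcodes. Hist2h2be (0.03 and -0.17) and Hist3h2ba (-0.05 and 0.41) were also close to 0, with intervals that include 0 in both libraries. The 6 tested H2B genes with the octamer had median log2 differences of 2.57 and 2.99, and the 7 tested H2B genes whose window lacked it had 1.69 and 1.92, as a description.

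H3 genes gave 9 of 12 that were 2-fold higher (7.73% of all genes). Hist1h3b had 138 UMIs in cycling and 15 in other barcodes of WT and 158 and 14 in KO, with log2 differences of 3.93 and 4.84. Hist1h3g (3.66 and 4.93) and Hist1h3c (3.57 and 4.80) were alike. The Hist2 copies Hist2h3c1 (0.09 and -0.11) and Hist2h3c2 (-0.43 and -0.24) stood at the bottom of the order with intervals that include 0, and they are near-identical copies, with 100% and 62.0% of 90-base stretches shared. H4 genes also gave 9 of 12 (7.73% of all genes), over a narrower range. Hist1h4d was at 69.9 and 15.4 CPM in WT and 79.2 and 15.8 CPM in KO (log2 2.18 and 2.33), Hist1h4h was at 1.52 and 1.87, and Hist1h4i was at 0.79 and 1.13.

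The ratio was lower where the annotated transcript ran on past the stem-loop than in either of the other groups. This grouping was chosen after the values had been seen and is given as a description. All counts in it stand against 7.73% of all genes. Of the members whose transcript ended within 100 bases of the stem-loop, 17 of 19 with enough UMIs were 2-fold higher in cycling barcodes, with median log2 differences of 2.89 and 2.93. Where the transcript ran on for 100 bases or more, 11 of 22 were higher, with medians of 1.15 and 1.64. Where it contained no stem-loop, 13 of 17 were higher, with medians of 2.39 and 2.53. Members with a poly(A) signal near the end gave 5 of 15 (medians 0.79 and 1.13), and members without one gave 36 of 43 (2.18 and 2.55). Hist1h1c, Hist3h2a, Hist3h2ba, Hist2h3c1 and Hist2h2be, all among the 6 lowest, had the signal. Hist1h2ae had it as well and was among the highest, so the signal did not sort every member. The members with longer transcripts made up 63.0% and 63.8% of member UMIs in other barcodes, against 50.5% and 47.1% in cycling barcodes.

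Genes that act with the histone cluster genes were read from lists, whose counts stand against 7.73% of all genes 2-fold higher and 5.77% lower. In the S phase list 22 of 24 genes were 2-fold higher in cycling barcodes in both libraries, with median log2 differences of 2.15 and 2.29, close to those of the members. Rrm2, a ribonucleotide reductase subunit, was at 4.35 and 4.17, Clspn at 3.51 and 3.76, and Tyms, thymidylate synthase, at 3.19 and 3.29. The 2 genes that missed the threshold were Rfc2 (1.001 and 0.97) and Slbp, the stem-loop binding protein, at 104 and 53.3 CPM in WT and 101 and 53.6 CPM in KO (0.97 and 0.91). In the G2/M list 23 of 24 were higher, with medians of 4.15 and 4.28, above the members. Mki67 and Top2a, which set the cycling gate, themselves peak in G2/M, so this rank is not independent of the gate. Nusap1 (5.72 and 5.80), Kif11 (4.94 and 5.50) and Hmmr (4.94 and 5.001), which act on the spindle, led the G2/M list, while Cenpa (2.25 and 2.38) and Pttg1 (0.08 and 0.06) were lowest.

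Of 19 measured genes that transcribe and process histone mRNA, 2 were 2-fold higher, a share near the 7.73% of all genes, with medians of 0.38 and 0.37. These were Cdk2, a kinase that acts on the histone gene coactivator NPAT (1.62 and 1.20), and E2f1 (1.40 and 1.40). Lsm11, part of the U7 snRNP that cuts histone pre-mRNA, was at 0.93 and 1.15, Ice1 at -0.27 and -0.23, and Ell2 at -0.74 and -0.69. Replication-independent histone genes, most of which give mRNAs with a poly(A) tail (H2afx is known to give both forms), had 5 of 10 higher (medians 0.92 and 1.14). Cenpa, the centromeric H3, H2afx (2.21 and 2.27) and H2afv (1.55 and 1.75) led, and H3f3b, which encodes H3.3, was at -0.12 and -0.20 and H2afj at -0.25 and -0.32. Of the 24 histone chaperone genes 10 were higher (0.96 and 1.02), led by Asf1b (3.24 and 3.52), Chaf1a (2.74 and 2.92) and Tonsl (1.71 and 2.88). Spty2d1 (-0.78 and -0.60) and Daxx (-0.67 and -1.01) were lowest. No gene of the 5 lists was 2-fold lower in both libraries. The lists overlap, so their counts are not separate. Chaf1a, Chaf1b and Mcm2 are on both the S phase and the chaperone list. Slbp is on the S phase and the histone mRNA list, and Cenpa is on the G2/M and the replication-independent histone list.

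The cycling barcodes with a UMI of the S or the G2/M list were assigned to the list of which they held the larger share, 416 to S and 378 to G2/M in WT and 417 and 398 in KO. The few cycling barcodes with no UMI of either list were left out here and in the 5 parts below, and no member is on either list. The members summed to 1109 CPM in S and 1417 CPM in G2/M barcodes of WT and to 1358 and 1733 CPM in KO. The log2 difference was -0.35 (-0.39 to -0.31) in WT and -0.35 (-0.39 to -0.32) in KO, so the summed level was lower in the barcodes called S. In macrophage-like barcodes 43 of 52 members were lower in S in both libraries by any amount, against 34.1% of 9679 genes, and in T-like barcodes 27 of 43 were, against 31.4% of 6730 genes. Hist1h1a, which encodes H1.1, and Hist1h3a were higher in S in both libraries and both classes, and Hist1h2ai in macrophage-like barcodes; these 3 names were read from the values. All intervals of Hist1h3a and Hist1h2ai include 0. For Hist1h1a the log2 differences were 0.57 and 0.43 in macrophage-like barcodes, and 0.12 and 0.81 in T-like barcodes, with intervals that include 0 in 1 library of each class. The sign of the sum rests on the gate: with cycling called from the S and G2/M lists instead of Mki67 and Top2a, the difference was 0.25 in WT and -0.07 in KO.

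The order from G2/M to S was then cut into 5 equal parts, a split made after the S and G2/M values had been seen. The level was highest in the middle. In macrophage-like barcodes of WT it ran 1277, 1712, 1729, 1430 and 446 CPM from the fifth with the most G2/M to that with the most S transcripts. In KO it ran 810, 2138, 2106, 1583 and 663 CPM. T-like barcodes gave 2210, 3023, 3290, 1874 and 842 CPM in WT and 2731, 3219, 3276, 2726 and 1611 CPM in KO. The barcodes with the highest share of S list transcripts thus held the lowest level in T-like cells of both libraries and in macrophage-like cells of both libraries, and barcodes with both lists held the highest.

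**Figure D3:**
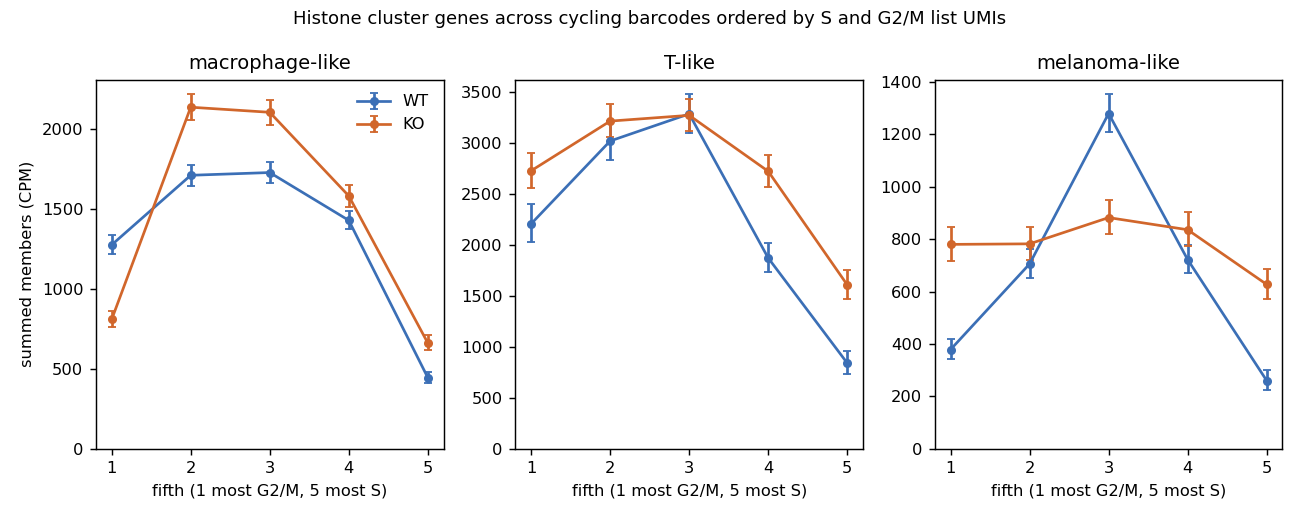
Summed CPM of the histone cluster genes (axis from 0, with 95% Poisson intervals) in 5 equal parts of the cycling barcodes, in the order from G2/M to S, in macrophage-like, T-like and melanoma-like barcodes of the libraries labelled WT and KO. The middle parts are highest and the fifth at the S end of the order is lowest in all 3 classes of both libraries (446 and 663 CPM in macrophage-like barcodes).

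Transcripts of 1 stretch of the Hist1 cluster were almost undetected in melanoma-like cells. This comparison was made after the values had been seen. The stretch runs from Hist1h2bl to Hist1h2br (chr13:21715763-21837530, GRCm38) and contains 18 members, among them Hist1h2ap and Hist1h1b. In cycling melanoma-like barcodes it gave 20 UMIs in WT (80 barcodes, 4.31 CPM) and 3 UMIs in KO (79 barcodes, 0.77 CPM). Cycling macrophage-like and T-like barcodes together gave 4090 UMIs (439 CPM) and 5098 UMIs (610 CPM), which is a log2 difference of -6.67 (-7.38 to -6.04) and -9.63 (-11.9 to -8.08). The stretch made up 29.6% and 33.8% of member UMIs in cycling macrophage-like barcodes, 28.6% and 33.5% in T-like barcodes, and 0.63% and 0.10% in melanoma-like barcodes. Over the alternative settings the log2 difference ran from -9.11 to -3.80 in WT and from -10.5 to -3.996 in KO.

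The other 49 members differed far less. They were at 676 and 782 CPM in cycling melanoma-like barcodes, against 1057 and 1198 CPM in macrophage-like and T-like barcodes (log2 -0.64 and -0.62). Hist1h2ap had 9 and 2 UMIs in melanoma-like barcodes and 2221 and 3275 in the immune barcodes. Hist1h1b had 3 and 0 against 641 and 660. Hist1h2ae, an H2A gene outside the stretch, had 934 and 750 UMIs against 1489 and 1679, log2 differences of 0.33 and -0.06. In cycling barcodes it was at 201 CPM in melanoma-like, 151 CPM in macrophage-like and 204 CPM in T-like cells of WT, and at 193, 182 and 258 CPM in KO.

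At least 8-fold lower in melanoma-like cycling barcodes in both libraries were 16 of 54 members with enough UMIs (29.6%), against 7.87% of 11357 genes, and none was 8-fold higher, against 5.75%. Of the 12 members of the stretch with enough UMIs, 11 were among the 16. The remaining member, Hist1h2ai, had 0 UMIs in melanoma-like barcodes and 42 and 58 in the immune barcodes, where 3 counts still allow a log2 difference of -2.80 and -3.17. The other 6 members of the stretch had too few UMIs. Outside the stretch, Hist1h1a (1 and 1 UMIs against 194 and 194), Hist1h3b (1 and 1 against 108 and 114), Hist1h3d (4 and 4 against 209 and 171), Hist1h2bf (0 and 1 against 50 and 62) and Hist1h2bk (3 and 2 against 53 and 37) were also 8-fold lower.

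**Figure D4:**
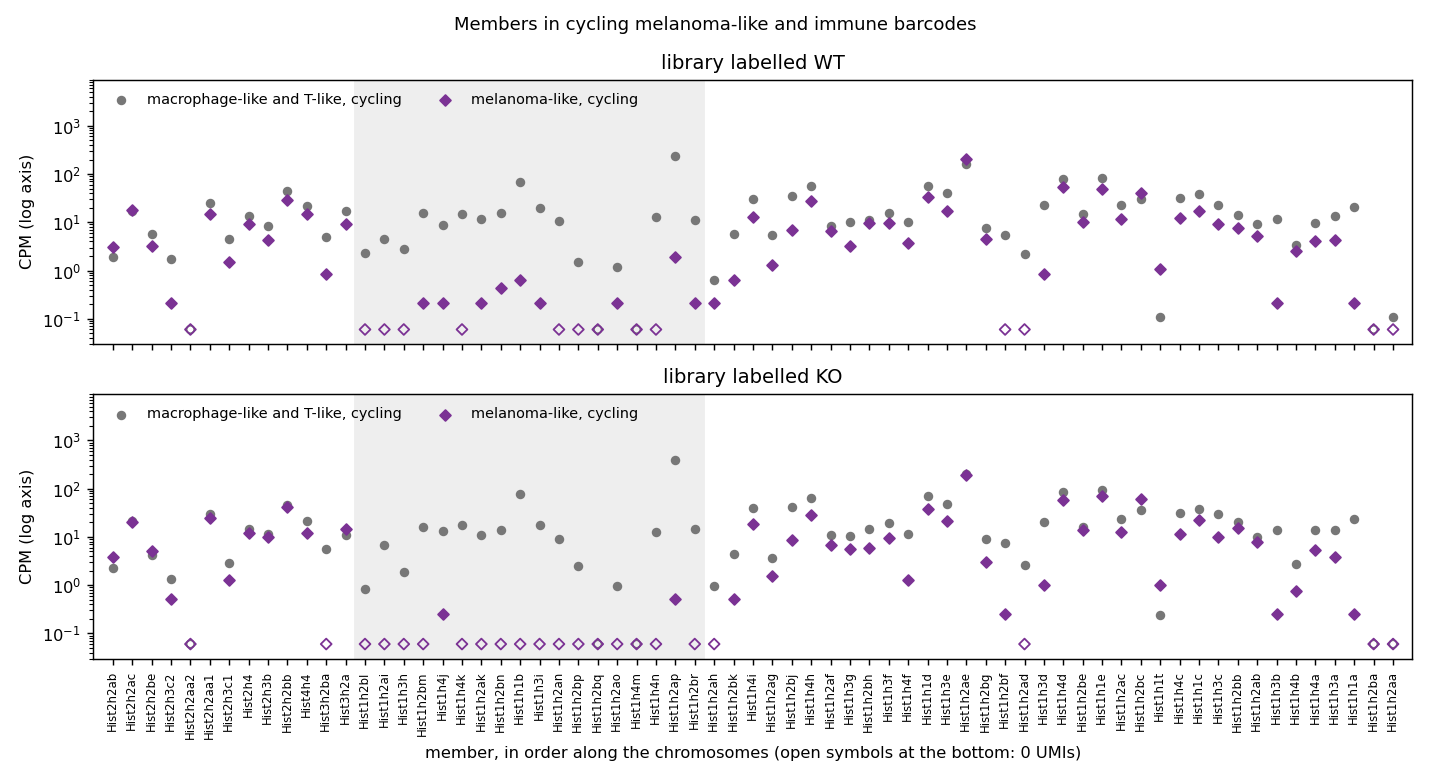
CPM (log axis) of the histone cluster genes in cycling melanoma-like barcodes and in cycling macrophage-like and T-like barcodes, in genome order within each cluster, for the libraries labelled WT and KO, with open symbols at the bottom for 0 UMIs. The 18 genes from Hist1h2bl to Hist1h2br (shaded) fall to 4.31 and 0.77 CPM in sum in melanoma-like barcodes, against 439 and 610 CPM in the immune barcodes.

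Zfp184, a zinc finger gene next to the stretch, had 10 and 16 UMIs in melanoma-like cycling barcodes and 1 and 2 in the immune barcodes, and Prss16, further on, had 2 and 4 against 3 and 3. The 20 and 3 UMIs of the stretch came from 7 and 3 barcodes. In WT, 9 of the 20 were Hist1h2ap UMIs from 1 barcode. Macrophage marker genes were at 78.1 and 80.9 CPM in melanoma-like cycling barcodes, against 10342 and 10421 CPM in macrophage-like ones, and their part in those UMIs was not tested. B16 is 1 cell line, so its cells in both libraries are not independent samples of melanoma.

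The H2B genes made up 30.7% and 35.5% of member UMIs in granulocyte-like barcodes, against 22.1% and 19.8% in other macrophage-like barcodes, in a comparison also made after the values had been seen. The share was not particular to granulocyte-like barcodes, since other melanoma-like barcodes were at 38.1% and 35.8%. Of the granulocyte-like H2B UMIs, Hist1h2bc alone gave 93 of 179 in WT and 44 of 93 in KO. Single members were compared with other macrophage-like and monocyte-like barcodes together. At least 2-fold higher in both libraries were 5 of 39 members (7.6% of genes), of which 4 were H2B genes, and 2 were lower (13% of genes). These counts are near the background. Hist1h2bc was at 78.2 and 82.9 CPM against 31.8 and 19.6 CPM, log2 1.30 (0.96 to 1.62) and 2.08 (1.60 to 2.53). Hist1h2be was at 22.7 and 37.7 CPM against 6.26 and 6.82 CPM. Hist1h2br, Hist2h2bb and Hist1h4i were the other higher members, and Hist1h1d and Hist1h4a were lower on 7 and 4 and on 2 and 1 UMIs.

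Between the libraries, the summed histone cluster genes were less than 2-fold apart in each class and state with a ratio. The study compared the genotypes to learn what loss of Mettl3 in myeloid cells does to the cells of the tumour. In macrophage-like barcodes the summed level of KO over WT was 0.15 on the log2 scale (0.11 to 0.19) in cycling and -0.10 (-0.17 to -0.04) in other barcodes. In T-like barcodes, in which Lyz2 Cre is not known to act, it was 0.28 (0.22 to 0.34) and -0.05 (-0.17 to 0.06). Monocyte-like barcodes were at -0.62 (-0.85 to -0.39) in cycling, from 15 and 20 barcodes, and at -0.17 (-0.25 to -0.09) in other barcodes. Cycling NK-like barcodes were at 0.60 (0.14 to 1.08), from 3 and 7 barcodes, and granulocyte-like barcodes at 0.01 (-0.21 to 0.22). The values of cycling monocyte-like and NK-like barcodes were the lowest and the highest of the classes and states with a ratio. The differences in cycling and other macrophage-like barcodes change sign with the cycling gate: called from the S and G2/M lists they were -0.34 and 0.18, with T-like cycling barcodes at -0.18, and at 4 UMIs of Mki67 and Top2a other macrophage-like barcodes were at 0.02.

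Few single members were 2-fold apart. In cycling macrophage-like barcodes 1 of 52 was (0.961% of genes), and in other macrophage-like barcodes none of 32 was (0.849%). The 1 member was Hist1h2ag, an H2A gene, at 4.89 CPM (38 UMIs) in WT and 2.22 CPM (14 UMIs) in KO, log2 -1.14 (-2.13 to -0.22). Hist1h2ap had 227 CPM in WT and 345 CPM in KO in cycling macrophage-like barcodes (0.60, 0.51 to 0.70), and 10.8 and 16.2 CPM in other ones (0.58, 0.24 to 0.93). It was also at 299 and 535 CPM in cycling T-like barcodes (0.84, 0.68 to 0.999), and at 296 and 136 CPM in cycling monocyte-like barcodes. Without Hist1h2ap, the summed difference in cycling macrophage-like barcodes was 0.033. In other barcodes Hist1h2bc was lower in KO in some classes, at 36.6 and 25.0 CPM in macrophage-like barcodes (-0.55, -0.77 to -0.33) and 19.1 and 12.8 CPM in monocyte-like barcodes (-0.57, -0.99 to -0.14), but not in granulocyte-like barcodes, at 78.2 and 82.9 CPM (0.08, -0.47 to 0.62). With both states together, the lowest macrophage-like ratios were those of Hist1h2ag (-0.99) and Hist2h3c1 (-0.72), and the highest those of Hist1h2ap (0.40) and Hist1h2af (0.38).

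In T-like barcodes none of 43 members was 2-fold apart in cycling (1.44% of genes) and 1 of 17 was in other barcodes (1.32%). This was Hist1h1c, at 53.0 CPM in WT and 26.0 CPM in KO, log2 -1.03 (-1.51 to -0.56). Over all T-like barcodes its difference was -0.42 (-0.75 to -0.10), and in cycling T-like barcodes it had 37.2 and 44.0 CPM. Conventional DC-like barcodes went the other way, at 39.7 CPM in WT and 56.5 CPM in KO (0.51, 0.08 to 0.95). Hist3h2a over all T-like barcodes was at 12.8 and 7.54 CPM (-0.76) and Hist1h4j at 8.87 and 15.1 CPM (0.77).

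Among all monocyte-like barcodes Hist1h1b was at 11.1 CPM in WT and 5.20 CPM in KO (-1.09, -1.69 to -0.49) and Hist1h2ae at 22.6 and 13.6 CPM (-0.74), while Hist1h3d (0.22) and Hist2h3b (0.04) stood highest. Cycling barcodes were 1.66% of monocyte-like barcodes in WT and 0.858% in KO, and the part of this share in the differences was not tested. Split by state, none of 27 members was 2-fold apart in other monocyte-like barcodes (1.31%), and Hist1h1b was at 4.77 and 3.70 CPM there. In the 15 and 20 cycling monocyte-like barcodes both members with enough UMIs, Hist1h2ap and Hist1h2ae, were lower in KO (4.91%). Hist1h2ap was at 296 CPM in WT and 136 CPM in KO there, but 17 of its 66 UMIs in WT and 15 of its 31 in KO came from 1 barcode.

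**Figure D5:**
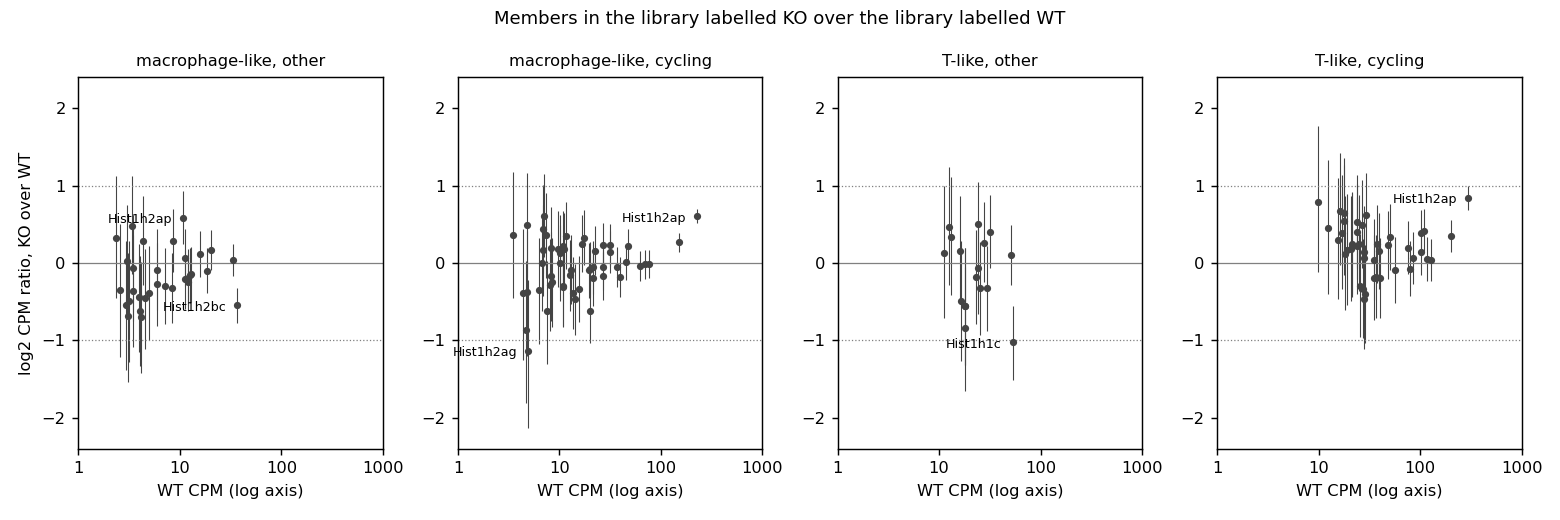
Log2 ratio of CPM in the library labelled KO over that labelled WT for each histone cluster gene with at least 50 UMIs in the class and state, against its CPM in WT (log axis), with 95% intervals and dotted lines at a 2-fold difference. Most genes lie within the dotted lines, and Hist1h2ap lies above 0 in both macrophage-like panels (0.60 in cycling, 0.58 in other) and in cycling T-like barcodes (0.84).

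The remaining classes gave similarly small counts. In cycling barcodes on the border of macrophage-like and monocyte-like 1 of 3 members, Hist1h2ap, was 2-fold higher in KO (4.62%), from 17 and 23 barcodes. Plasmacytoid DC-like barcodes had 1 member with enough UMIs, Hist3h2a, which was not 2-fold apart at -0.72 (2.26%). Among granulocyte-like barcodes none of 3 members was 2-fold apart (3.21%), with Hist1h1c at 62.2 and 71.6 CPM and Hist1h4i at 35.3 and 35.8 CPM. Conventional DC-like barcodes had none of 3 in cycling (3.1%) and none of 4 in other barcodes (1.12%), and with both states together Hist1h2ae was at -0.35, Hist1h1b at -0.07 and Hist1h1d at 0.45. In cycling melanoma-like barcodes, tumour cells that carry neither genotype, 1 of 26 was (0.994%): Hist2h3b, at 4.31 and 10.01 CPM (1.22, 0.40 to 2.07). Of the lists of other genes, 1 of 20 G2/M genes and none of 24 S phase, 19 histone mRNA, 9 replication-independent histone and 23 chaperone genes was 2-fold apart between the libraries in other macrophage-like barcodes (0.849% of all genes). With 1 library per genotype, differences between the pools of mice, the sorts and the libraries cannot be told apart from the genotype.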

How the data were processed

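The authors sorted live CD45+ cells from tumours, prepared 10x Chromium 3′ libraries and deposited, per the labels, UMI counts per gene and barcode, made with Cell Ranger 4.0.0 against mm10. Cell Ranger leaves out reads that match several genes equally well. Replicate information within a library is not used here, since each library was pooled.

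From the deposited counts, barcodes with at least 200 genes and at most 10% mitochondrial UMIs were kept. Barcodes were gated to classes by summed markers (C1qa, C1qb, C1qc, Mrc1 and Adgre1 among those of macrophage-like barcodes, and likewise for the others), with thresholds in UMIs and per 10000 UMIs that were chosen after looking at the data. Barcodes with markers of 2 lineages (105 cycling and 330 other in WT, 74 and 294 in KO) were left out of the named classes but stay in values over all kept barcodes, with no doublet caller in the main values. Raw UMIs of the 67 members were summed per library, class and state and divided by the class's total (CPM per 1000000 UMIs). Poisson 95% intervals for counts and exact Clopper-Pearson intervals for shares cover counting error only, and a count of 0 was read as allowing 3 counts. A fold needed 50 UMIs. With 1 library per genotype no test was made, and a call means a 2-fold difference (8-fold for melanoma-like barcodes). The summing and calling were tested on simulated counts.

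The members and gene lists were chosen with earlier results of these data known. Named members were the 12 with the most UMIs, the 6 highest and 6 lowest in cycling over other barcodes, and the 2 highest and 2 lowest between libraries in each of 5 classes; of each gene list, the 3 highest and 2 lowest were named. Any other member named was chosen after its values were seen. Alternatives covered scaling, thinning, filters, doublet removal, gates and fold thresholds, and leaving out barcodes with markers of 2 lineages was added after seeing the data. Transcript models were those of GENCODE M21, to which all 67 members matched by identifier, and 62 members matched RefSeq promoter windows by symbol. Python 3.11.15, numpy 2.4.6, scipy 1.17.1, pandas 2.3.3, matplotlib 3.10.9 and scanpy 1.11.5 were used.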

Additional observations from a re-analysis of the deposited data

Results flagged for a closer look

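In 3 classes the summed histone cluster genes were higher in KO than in WT in cycling barcodes and lower in other barcodes, with both intervals excluding 0. In macrophage-like barcodes the log2 difference was 0.15 in cycling and -0.10 in other barcodes. In barcodes on the border of macrophage-like and monocyte-like, which were led by Ccl24 and Thbs1 and given no name, it was 0.26 and -0.15. In melanoma-like barcodes it was 0.20 and -0.19. T-like barcodes had the same signs, 0.28 and -0.05, but the second interval includes 0. Monocyte-like barcodes were lower in both states, at -0.62 and -0.17. These opposite directions were not tested, since each genotype had 1 library, and those in macrophage-like and T-like barcodes change with the cycling gate. With cycling called from the S and G2/M lists, T-like barcodes were at -0.18 in cycling and 0.43 in other barcodes.

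Barcodes with markers of 2 lineages, 435 in WT and 368 in KO, entered no comparison within a class but count among all kept barcodes. Their histone cluster genes summed to 1170 CPM in cycling barcodes of WT and 1751 CPM in those of KO, and to 412 and 428 CPM in other barcodes. Cycling lay above other barcodes here too. Without them, the log2 difference between cycling and other over all kept barcodes was 1.74 in WT and 2.13 in KO, and 41 of 58 members were 2-fold higher.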

How the results depend on the processing

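Each result was recomputed under alternatives, 1 change at a time. Of the alternative values of the main comparisons, 157 stayed within the counting interval or 1.5-fold of their count, 83 moved, and 5 changed the sign of a difference whose interval excluded 0. For named members, 589 stayed, 73 moved and 3 changed sign in that way. Counting values near 0 as well, the sign changed in 10 and 37. No value changed the direction of cycling over other for the summed members. No paired analysis was possible because each genotype had 1 library. All pairs of values below are WT then KO, on the log2 scale unless a count or a percentage is named.

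For cycling over other in all kept barcodes, composition scaling gave 1.66 in WT, a mean over barcodes 1.62 and 1.98, thinning to 1000 UMIs 1.81 in WT, and removal of the highest Scrublet scores 2.20 in KO. A gate of 4 UMIs gave 1.91 and 2.22, a gate of 1 UMI 1.48 and 1.77, the S and G2/M lists 1.78 and 1.77, leaving out Hist1h2ap 1.55 and 1.90, and leaving out the top barcode of each class 1.67 and 2.10. In macrophage-like barcodes a mean over barcodes gave 1.68 and 1.98, thinning 1.97 and 2.13, the gate of 4 UMIs 2.25 in WT, the gate of 1 UMI 1.83 and 1.95, the lists 1.93 and 1.41, and leaving out Hist1h2ap 1.83 and 1.998. In T-like barcodes thinning gave 2.47 in KO, the gate of 4 UMIs 2.20 in WT, the gate of 1 UMI 1.72 and 2.19, the lists 2.24 and 1.63, and leaving out Hist1h2ap 1.84 and 2.09.

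For KO over WT in cycling macrophage-like barcodes, a mean over barcodes gave 0.077, thinning 0.0011, the gate of 4 UMIs 0.080, the gate of 1 UMI 0.053, doubled marker minimums 0.19, leaving out Hist1h2ap 0.033, and the lists -0.34, a change of sign. In other macrophage-like barcodes a mean over barcodes gave -0.22, while the gate of 4 UMIs (0.023) and the lists (0.18) changed the sign. In cycling T-like barcodes thinning gave 0.35, Scrublet removal 0.40, the gate of 4 UMIs 0.18, the gate of 1 UMI 0.38, leaving out Hist1h2ap 0.17, leaving out the top barcodes 0.34, and the lists -0.18, a change of sign. In other T-like barcodes, at -0.05, thinning gave -0.19, while the gate of 4 UMIs (0.040) and the lists (0.43) crossed 0. In granulocyte-like barcodes, at 0.01, thinning gave 0.43, while composition scaling (-0.097), the stricter filter (-0.070) and leaving out Hist1h2ap (-0.011) crossed 0. The cause was not tested.

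For S over G2/M, a mean over barcodes gave -0.31 in KO, thinning -0.25 and -0.13, Scrublet removal -0.40 in WT, the gate of 4 UMIs -0.12 and -0.096, the gate of 1 UMI -0.58 and -0.72, leaving out Hist1h2ap -0.31 in WT, leaving out the top barcodes -0.29 in KO, leaving out barcodes with markers of 2 lineages (added after seeing the data) -0.42 in KO, and the lists 0.25, a change of sign, and -0.070. For Hist1h2bl to Hist1h2br in melanoma-like barcodes, thinning gave -3.80 and -3.996, where few UMIs remain, Scrublet removal -8.37 in WT, the lists -9.11 in WT, and doubled marker minimums -7.04 in KO.

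After thinning, 21 of 35 members were 2-fold higher in cycling barcodes, against 41 of 58. Members 2-fold apart between the libraries in other macrophage-like barcodes numbered 1 with the stricter barcode filter and 1 with the gate of 4 UMIs. At a threshold of 1.5-fold instead of 2-fold, 3 members were apart. The share of all genes was not counted under these settings, so these counts have no background to stand against. The share of other barcodes with a member UMI was 33.3% and 31.2% after thinning, 73.1% and 69.6% with the stricter filter, 66.2% in KO after Scrublet removal, 68.9% and 66.1% with the gate of 1 UMI, 72.9% and 69.6% with the lists, 66.1% in KO without Hist1h2ap, and 46.8% and 40.7% when 2 UMIs were asked for. Among named members, Hist1h1c in cycling over other barcodes of WT turned to 0.026 after thinning and 0.21 with the lists, and Hist1h2bc in KO to -0.15 with the lists. Scrublet removal took 256 barcodes of WT and 532 of KO. Depth limits single members: 9 had fewer than 50 UMIs, and most class and state splits left fewer than 58 members to compare.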
